A study of Mus musculus with 3 samples.

Results

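The antibody constant region genes Ighm, Igha, Ighg1, Ighg2b, Ighg2c and Igkc were followed across 3 arrays of long-term haematopoietic stem cells (LT-HSCs), rare cells at the top of the blood-forming hierarchy. The members were the probe sets whose symbol in the platform's probe table was one of these 6 names, and all 6 were found among 23185 named genes. They had been picked with their readings on these arrays known, so their values are given as a description and no test is attached to them. All cells came from bone marrow of female C57Bl/6 mice aged 8 to 10 weeks. One group was non-irradiated. The others had been exposed to 8 Gy of total body irradiation (TBI), one at CDR, read here as conventional dose rate because the labels do not spell it out, and one as FLASH, which is delivery at an ultra-high dose rate. For each sample 10000 LT-HSCs were collected at 15 days after TBI, per the labels' protocols. Neither the sort gate nor the number of mice per sample is stated there. With 1 array in each group, nothing below was checked against replicates, and every "higher" or "lower" is a statement on these arrays alone.

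An antibody is built from heavy and light chains, and the constant region of the heavy chain sets its class. Ighm encodes the mu chain of IgM, the first class a B cell makes. The gamma, epsilon and alpha regions are reached by class switch recombination, in which the DNA between the J segments and a downstream constant region is cut out. Ighg1, Ighg2b and Ighg2c encode the gamma chains of IgG subclasses, and C57BL/6 mice carry Ighg2c in place of the Ighg2a gene of other strains. Igha encodes the alpha chain of IgA, the class of mucosal secretions, and Igkc the kappa chain, the light chain of most mouse antibodies. Plasma cells, the antibody-secreting end stage of the B lineage, live in bone marrow and hold these transcripts at very high levels. In the RefSeq gene table for GRCm38.p6 the heavy chain regions lie on chromosome 12 in the order Ighm, Ighd, Ighg3, Ighg1, Ighg2b, Ighg2c, Ighe and Igha, read from the J segments. Igkc lies on chromosome 6.

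Values are log2 levels as deposited, and a difference of 1 is 2-fold. Receptors of smell, pheromones and trace amines (1364 genes) served as genes presumed silent, and the 95th percentile of their values set a detection level for each array: 4.15 without irradiation, 4.16 after CDR and 4.22 after FLASH. To count as detected between a pair of arrays, a gene had to exceed this level on the brighter of the pair. If the dimmer reading fell below it, the fold was taken against the level and is a lower bound. Counts past 2-fold used the deposited differences instead, so a counted gene can have a bound under 2-fold. All 6 members were detected in every comparison. Levels of different probe sets cannot be set against each other, so each class is compared with itself across arrays.

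The constant regions did not share a single pattern. IgM, IgA and kappa transcripts were lower on the CDR array and close to the non-irradiated level on the FLASH array. Ighg2c was high on the non-irradiated array alone and lower on both irradiated arrays, by 22.7-fold on CDR and at least 24.7-fold on FLASH. Ighg2b was kept on the CDR array and read under the detection level on the FLASH array. Ighg1 was modestly lower on both.

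**Figure D1:**
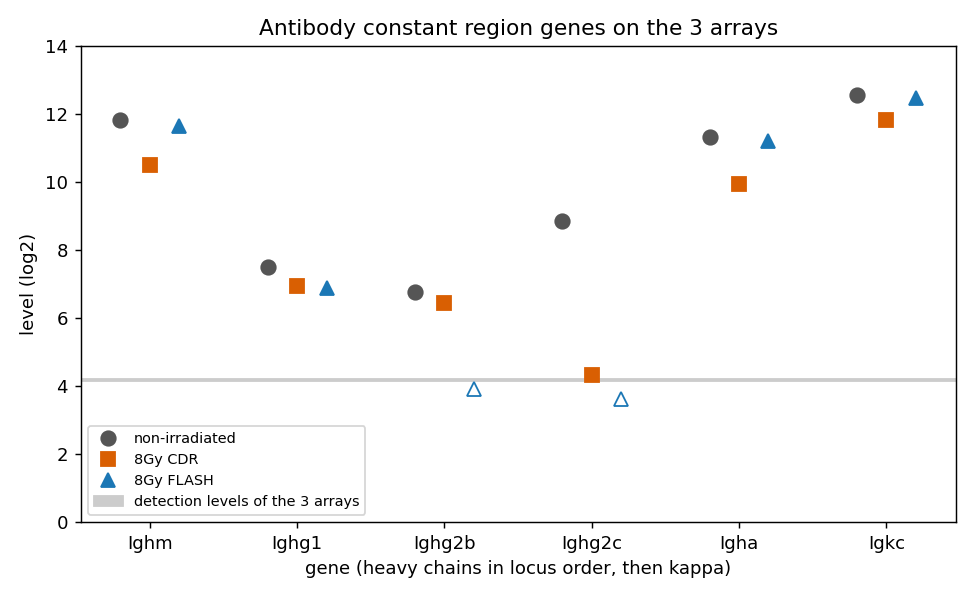
Log2 level of each antibody constant region gene (horizontal axis) on the non-irradiated (circle), 8Gy CDR (square) and 8Gy FLASH (triangle) arrays, 1 array each, with the grey band spanning the 3 detection levels (4.15 to 4.22). Open symbols lie under the detection level of their array: Ighg2b and Ighg2c on the FLASH array, at 3.90 and 3.61.

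The mu region gene Ighm read 11.83 without irradiation, 10.49 after CDR and 11.64 after FLASH. The CDR array was the low one. Its difference from the non-irradiated array was -1.34 (2.53-fold lower), whereas that of the FLASH array was -0.19 (1.14-fold lower). The alpha region gene Igha, at the far end of the locus from Ighm, read 11.31, 9.95 and 11.21 on the non-irradiated, CDR and FLASH arrays. Its differences of -1.37 on CDR and -0.10 on FLASH lay next to those of Ighm. Relative to Ighm, Igha moved by -0.03 on the CDR array and by 0.08 on the FLASH array, both inside the SD of the differences of the receptor genes presumed silent (0.21 for each of these comparisons). That SD covers probe sets near background and is not a replicate error.

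Igkc, which can pair with any heavy chain class, read 12.55 without irradiation, 11.82 after CDR and 12.46 after FLASH. It was also lowest on CDR, by a smaller difference of -0.72 (1.65-fold), and at -0.09 on FLASH. The highest value of any probe set was 13.17 without irradiation, 13.28 after CDR and 13.17 after FLASH, so Igkc read near the top of the range on all 3. Whether signal is compressed there was not tested.

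The gamma regions did not move as a block. Ighg1 read 7.51, 6.96 and 6.89 on the non-irradiated, CDR and FLASH arrays, with differences of -0.55 (1.47-fold) and -0.62 (1.54-fold) on the irradiated arrays. The FLASH and CDR arrays were close to each other for this gene, at -0.07 between them. Ighg2b read 6.78 without irradiation, 6.45 after CDR and 3.90 after FLASH. It was thus 1.26-fold lower on CDR, a difference of -0.33, and at least 5.91-fold lower on FLASH, where it lay under the detection level.

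Ighg2c read 8.84 without irradiation, 4.34 after CDR and 3.61 after FLASH. The CDR value was just above that array's detection level and the FLASH value was under it. The deposited difference was -4.50 (22.7-fold) on CDR and -5.23 on FLASH, where the bound was at least 24.7-fold lower. Ighg2b and Ighg2c are neighbours in the locus, and relative to Ighg2c the Ighg2b reading moved by 4.17 on the CDR array. Gamma regions resemble each other in sequence, and the probe sequences were not used here, so signal shared between these probe sets is uncertain.

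The other constant regions with a probe set lay under the detection level on every array. Ighg3, the gamma region next to Ighg1, held the same value of 3.53 on all 3 arrays. Ighe, which encodes the epsilon chain of IgE, read 3.04, 2.97 and 2.97. Ighd and the lambda constant regions Iglc1, Iglc2, Iglc3 and Iglc4 had no probe set under these symbols and so were not analysed here.

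CDR was first set against non-irradiated, which asks where these genes stood at 15 days after irradiation. All 6 constant regions read lower on CDR, from -0.33 for Ighg2b to -4.50 for Ighg2c, with a median of -1.03 against a median of 0 over all 13448 detected genes. Ighm, Igha and Ighg2c were at least 2-fold lower, 3 of 6, and 0 were at least 2-fold higher. Over all detected genes 2.36% were at least 2-fold lower and 0.766% at least 2-fold higher. Counted from the most negative difference, Ighg2c stood at place 14 of the 13448 genes, Igha at 170 and Ighm at 173.

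FLASH was next set against non-irradiated, which poses this question for the ultra-high dose rate. All 6 again read lower, but from -0.09 for Igkc to -5.23 for Ighg2c, with a median of -0.40 against 0 over 13288 detected genes. The differences of Ighm (-0.19), Igha (-0.10) and Igkc lay inside the SD of 0.21 of the receptor genes presumed silent. Ighg2b and Ighg2c were at least 2-fold lower, 2 of 6, and 0 were at least 2-fold higher. The background was 1.75% of detected genes at least 2-fold lower and 1.17% at least 2-fold higher. Both irradiated arrays were set against the same non-irradiated array, so its own error enters each pair of differences.

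**Figure D2:**
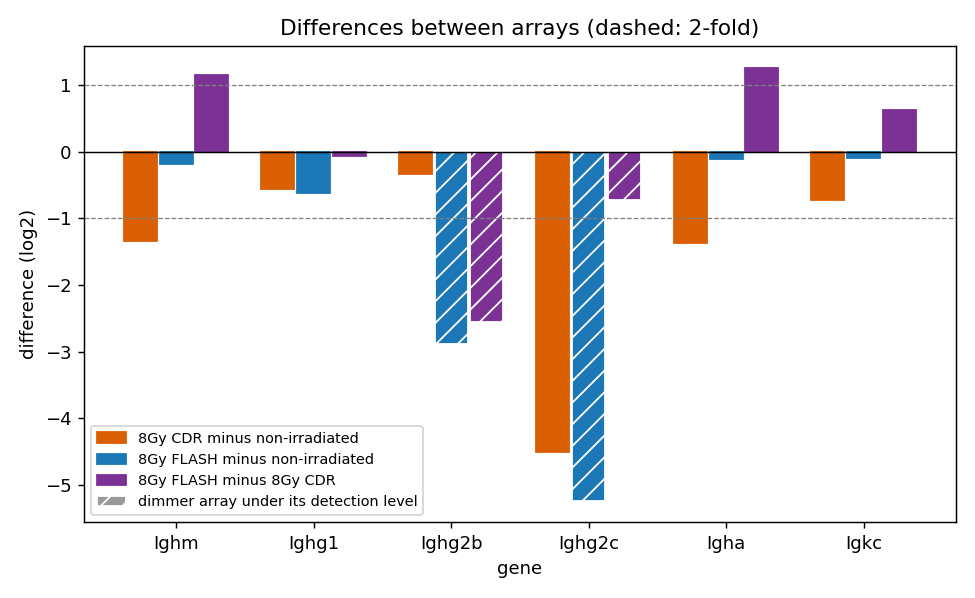
Log2 difference between arrays (vertical axis) for each antibody constant region gene, with 1 bar for each pair of arrays, dashed lines at 2-fold, and hatching where the dimmer array lay under its detection level. Ighm and Igha pass 2-fold on CDR and not on FLASH against non-irradiated, Ighg2b the reverse, and Ighg2c passes in both.

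Setting FLASH against CDR compares both dose rates at the same dose without using the non-irradiated array. Igha was 1.26 higher on the FLASH array (2.40-fold) and Ighm 1.15 higher (2.22-fold). Igkc was 0.63 higher (1.55-fold). Ighg2b went the other way and was at least 4.70-fold lower on FLASH, and Ighg1 differed by -0.07. Ighg2c was near or under the detection level on both arrays, at 4.34 on CDR and 3.61 on FLASH, and was at least 1.09-fold lower on FLASH. In all, 2 of 6 members were at least 2-fold higher on FLASH and 1 of 6 at least 2-fold lower. The median was 0.28 against 0 over 13184 detected genes. The background over all detected genes was 0.850% past 2-fold upwards and 0.144% past it downwards. These shares and those of the other comparisons are also the background for the gene lists below.

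Setting each heavy chain against Igkc within an array removes a shift that both share. On the CDR array Ighm and Igha moved beyond Igkc, by -0.62 and -0.64, while Ighg1 and Ighg2b moved less than Igkc and stood at 0.17 and 0.39. For Ighm and Igha this sign depended on the kappa probe set used. Set against the kappa J segments Igkj1 and Igkj5, Ighm stood at 0.17 and 0.95 on CDR, and Igha at 0.15 and 0.92. On the FLASH array Ighm and Igha lay close to Igkc, at -0.10 and -0.01, and Ighg1 stood at -0.53. These values also depended on the kappa probe set. Against Igkj1, Ighm, Igha and Ighg1 stood at 0.42, 0.50 and -0.01 on FLASH, and against Igkj5 at -0.16, -0.08 and -0.59. Ighg2c stood at -3.78 on CDR. On FLASH, where Ighg2b and Ighg2c were under the detection level, only bounds can be given, and with their readings raised to that level they stood at -2.47 and -4.53. With 32 added to every linear value before the log instead, they stood at -1.51 and -3.38.

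J segments, the short joining parts spliced onto the constant regions, were read by probe sets of their own and were looked up after the members' values were seen. Of 6 J segments with a row, 5 were detected, and all 5 read at least 2-fold lower after CDR while 0 did after FLASH. Ighj1 read 12.61 without irradiation, 11.0 after CDR and 12.35 after FLASH. Ighj3 read 10.92, 9.09 and 10.96 on these arrays, and Ighj4 read 11.48, 10.30 and 11.15. The 3 heavy chain J segments thus had the same low array as Ighm and Igha, with differences of -1.17 to -1.82 on CDR and -0.33 to 0.04 on FLASH.

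The kappa J segments differed more than Igkc did. Igkj5 read 11.82 without irradiation, 9.53 after CDR and 11.79 after FLASH, a difference of -2.29 on CDR that went beyond the Igkc difference by -1.57. Igkj1 read 12.47, 10.96 and 11.86, with a difference of -1.51 on CDR that went beyond the Igkc difference by -0.79. Igkj3 lay under the detection level on all 3 arrays. The size of the kappa difference on CDR therefore depended on which probe set of the locus was read, from -0.72 to -2.29, while its direction was the same for all 3 detected ones.

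The V segments, which encode the variable ends of the same chains, had a wider range of deposited differences than the constant regions. Their differences ran from -8.75 to 3.55 on CDR and from -6.28 to 4.68 on FLASH. A range grows with the number of genes, here 121 and 133 detected V segments, so the ranges are not a like measure. The low ends, Igkv10-96 on CDR and Ighv1-9 on FLASH, rest on readings under the detection level. By deposited differences, 41 of 58 detected heavy chain V segments were at least 2-fold lower on CDR against non-irradiated, and 3 higher. On the FLASH array 19 of 62 were lower and 12 higher. For kappa V segments the counts were 38 of 60 lower and 2 higher on CDR, and 19 of 68 lower and 26 higher on FLASH. Over all detected genes 2.36% were lower and 0.766% higher on CDR, and 1.75% and 1.17% on FLASH. Some segments, Ighv1-9 among them, were above the detection level on 1 array alone and counted as detected only through it. Some counted as lower on CDR had bounds under 2-fold, such as Ighv1-19 at 1.38-fold and Igkv4-59 at 1.10-fold.

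**Figure D3:**
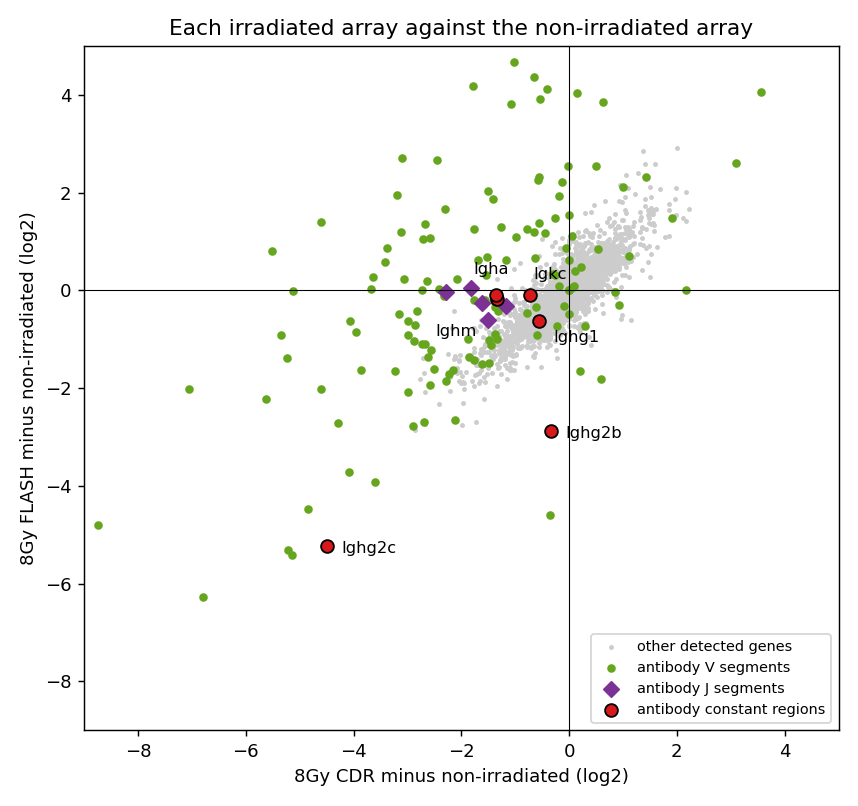
Log2 difference from the non-irradiated array on the 8Gy CDR array (horizontal) and the 8Gy FLASH array (vertical) for each detected gene, with antibody constant regions in red, J segments as purple diamonds and V segments in green. Ighm, Igha and the J segments lie left of the vertical line. They also lie near the horizontal one, apart from Igkj1 at -0.61 on FLASH. Ighg2c lies at -4.50 and -5.23, and Ighg2b at -0.33 and -2.88, the FLASH readings of both being under the detection level. Both axes share the non-irradiated array.

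The genes with the most similar pattern were found by the Euclidean distance between the pairs of log2 differences from the non-irradiated array, which rests on 3 arrays only, among 12567 detected genes without gene models. For Ighm the nearest were Ighv2-3 at a distance of 0.06, Igha at 0.09 and Ighv1-37 at 0.17. For Igha they were Ighm at 0.09, Ighv2-3 at 0.12 and Ighv11-2 at 0.22. The nearest genes of the mu and alpha regions were therefore antibody genes in each case. Among the 317 genes at least 2-fold lower on CDR, 81 were V segments, so antibody genes were frequent in that range. Ighv11-2 read 12.17 without irradiation, 10.62 after CDR and 11.97 after FLASH.

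For Ighg2c and Ighg2b the distances use readings under the detection level, so they are not given and support no likeness. The rule named the V segments Ighv10-3, Igkv1-122 and Ighv9-1 for Ighg2c. Ighv10-3 read 8.36, 3.21 and 2.95 on the non-irradiated, CDR and FLASH arrays, and Igkv1-122 read 8.30, 3.09 and 2.99. Ighv9-1 read 8.37, 3.52 and 3.90. These 3 segments were above the detection level only on the array without irradiation, through which alone they counted as detected. For Ighg2b the rule named Vaultrc5, Igkv4-72 and Prkaa2. The small differences of Ighg1 and Igkc were matched by genes of other kinds, Inafm1, Rnf180 and Phactr2 for Ighg1 (0.01 to 0.02) and Pou6f1, Cd28 and Olfr1537 for Igkc (0.03 to 0.04).

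Genes of antibody-secreting cells were set beside the constant regions. Of 23 with a row, 21 were detected, and on the CDR array 4 were at least 2-fold lower and 0 at least 2-fold higher, with a median of 0. In direction the list was split, with 9 above 0, 9 below and 3 tied, and the highest was Creld2 at 0.62. Jchain encodes the joining chain that links IgM and IgA into polymers. It read 9.79 without irradiation, 7.65 after CDR and 9.37 after FLASH. Its difference of -2.14 on CDR exceeded those of Ighm and Igha by -0.80 and -0.77, and it stood at -0.41 on FLASH. Mzb1, a chaperone of antibody assembly, read 6.50, 5.22 and 6.06, with the CDR array low by -1.29. The other two were Pou2af1, a coactivator of antibody gene transcription, at -1.03, and Prg2, the granule major basic protein of eosinophils, at -1.09. Pou2af1 was chosen for mention after its values were seen, as was Prg2 on CDR.

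On the FLASH array 1 of the 21 antibody-secreting cell genes was at least 2-fold higher against non-irradiated and 1 at least 2-fold lower. The median of the list was 0.25. These were the surface receptor gene Slamf7 at 1.05 and Prg2 at -1.59. After FLASH relative to CDR, 3 were at least 2-fold higher and 0 lower, and the median was 0.16. They were Jchain at 1.72, Slamf7 at 1.55 and Pou2af1 at 1.46, named last after its values were seen. Xbp1, a transcription factor of secretory cells that other cell types also express, read 8.43, 8.62 and 8.77 on the non-irradiated, CDR and FLASH arrays and so did not share the low CDR reading.

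**Figure D4:**
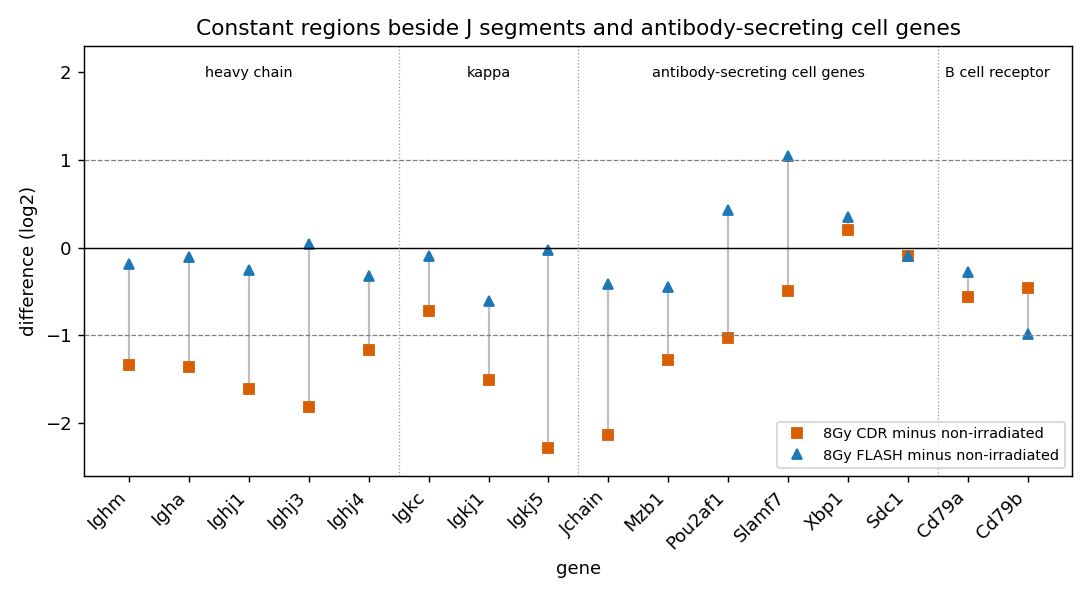
Log2 difference from the non-irradiated array on the 8Gy CDR (squares) and 8Gy FLASH (triangles) arrays for Ighm, Igha and Igkc beside detected J segments, genes of antibody-secreting cells and the B cell receptor genes Cd79a and Cd79b, a selection made after the values were seen. The CDR value is the lower of the pair for the genes from Ighm to Xbp1 and for Cd79a, is equal to the FLASH value for Sdc1, and is the higher one for Cd79b. Of the 21 detected antibody-secreting cell genes, 9 read above 0 on CDR and 9 below, so those shown lean to the lower side. Both sets share the non-irradiated array.

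B lineage genes were detected for 13 of 22 with a row. On the CDR array 2 were at least 2-fold lower and 0 higher, with a median of -0.15. These were Dntt, the DNA polymerase that adds bases at V(D)J joins, at -2.68 and the B cell surface gene Cd72 at -1.04. On the FLASH array Dntt was lower at -2.09 and Cd74, the invariant chain of MHC class II, higher at 1.74, and the list's median was 0. Between FLASH and CDR Cd74 was the 1 gene past 2-fold, at 1.28, with a median of 0.07. Cd79a, a signalling chain of the B cell receptor, read 5.39, 4.83 and 5.11 on the non-irradiated, CDR and FLASH arrays. Its partner Cd79b read 9.04, 8.58 and 8.05, lowest on FLASH and so in another order than Ighm.

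The genes of class switching, which include the uracil glycosylase Ung and end-joining factors, were within 2-fold in every comparison, 20 of 20 detected, with medians of 0. Fc receptor and antibody transport genes, whose products bind the constant regions, were detected for 12 of 16 in both comparisons with the non-irradiated array. Fcgr2b, the inhibitory IgG receptor, read 5.96, 7.34 and 6.89 on the non-irradiated, CDR and FLASH arrays and was the 1 gene past 2-fold, 1.38 higher on CDR. The medians of this list were 0 in all 3 comparisons.

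Markers of the sorted cells and of other cell types bear on what the constant region signal can hold. All 9 LT-HSC markers with a row were above the detection level on each array. Their summed level, on a log2 scale, was 11.40 without irradiation, 10.52 after CDR and 10.38 after FLASH. This sum was carried mainly by Kit (10.25, 9.78 and 9.38) and Hlf, and the median of the list was 6.33, 6.11 and 6.27. The stem cell factor Hlf was lower on both irradiated arrays, at 9.92, 7.92 and 8.02, and the surface marker gene Procr read 7.15, 5.42 and 6.33, whereas Slamf1 stayed within 6.11 to 6.24. Of 8 plasma cell markers, 7 exceeded the detection level without irradiation, 6 after CDR and 7 after FLASH. Their summed level was 10.49, 9.54 and 10.33, but this sum follows Jchain. The median of the list stayed between 4.99 and 5.05, and Derl3 held the same value of 5.24 on all 3 arrays. Besides Jchain, Mzb1 (6.50, 5.22 and 6.06), Tnfrsf17 (4.46, 4.05 and 4.46) and Irf4 (4.39, 4.17 and 4.39) also read lowest on CDR. The CDR reading of Tnfrsf17 was under the detection level, and Irf4 was close to that level throughout. Xbp1 went the other way, lowest without irradiation (8.43, 8.62 and 8.77). Prdm1, a defining factor of plasma cells, was under the detection level on all 3 arrays at 3.76, and Sdc1, the plasma cell surface marker CD138, read 4.87, 4.77 and 4.77. Of 6 B cell markers, 3 were above the detection level on each array, and Ms4a1, Ebf1 and Cd22 were under it on all 3. Their summed levels of 9.30, 8.88 and 8.49 were carried by Cd79b (9.04, 8.58 and 8.05). T cell markers were above it for 2 or 3 of 7, with Cd3d, Cd3e and Cd3g under it throughout. Summed dendritic cell markers stood at 10.77, 11.02 and 12.05, although Flt3 of that list fell (8.69, 7.64 and 7.22). Erythroid markers stood at 9.35, 10.28 and 10.56, and mast cell and basophil markers at 10.77, 10.26 and 10.43. The last sum hides opposite moves. Prss34 read 9.25, 6.53 and 7.87, whereas Tpsb2 read 3.89, under the detection level, then 5.89 and 6.81. The granulocyte sum of 13.24, 13.26 and 13.21 was carried by genes such as Mpo (12.36, 12.52 and 12.45), while the median of that list was 8.25, 6.34 and 6.80, lowest on CDR. The part of other cells in the constant region values was not tested. In RNA from a sorted population, fewer cells of a type and less RNA per cell cannot be told apart.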

How the data were processed

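Levels were measured on 3 Affymetrix arrays, 1 per group, hybridised with biotin-labelled target made by the whole transcript sense target assay, per the labels' protocols. The deposited table holds the authors' processed log2 level of each of 25206 probe sets, with the log base taken here from the range of values. The submitters' processing notes name Partek. How the authors corrected, summarised and normalised the signal was not given in the sources used here. Exact ties across the 3 arrays made up 39.8% of probe sets, which draws medians of gene lists towards 0. The platform's probe table gave 23185 probe sets 1 symbol, 0 several, and 2021 were unnamed. The 6 members matched the RefSeq gene table (GRCm38.p6) by Entrez identifier. That table was used for names and gene order alone.

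Array medians over all probe sets were 4.62 to 4.66. Differences were taken between deposited values, with no test, since each group had 1 array, which limits the precision. The members and lists were chosen with earlier results of these data known. The text names the members, other constant regions, up to 2 genes per list, direction and comparison past 2-fold, and the 3 nearest genes of each member. Other genes named, cell type markers among them, were picked for mention after their values were seen. Summed marker levels were sums of linear values, so the brightest probe sets of a list weigh most in them. The settings varied were the scaling (median centring, quantile normalisation or cyclic loess; R 4.3.3 and limma 3.58.1), 32 added before the log, a detection level at the 99th percentile, no filter, dim values raised to the detection level, and fold thresholds of 1.5 and 3. The steps were tested on simulated data in which only bright genes were changed, each by more than 2-fold. Readings near the detection level and differences near the threshold were not covered by it. Python 3.11.15, numpy 2.4.6, pandas 2.3.3 and matplotlib 3.10.9 were used.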

Additional observations from a re-analysis of the deposited data

How the results depend on the processing

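The counts of members past 2-fold, 3 of 6 between CDR and non-irradiated, 2 between FLASH and non-irradiated and 3 between FLASH and CDR, were made up of the same genes under median centring, quantile normalisation, cyclic loess, the offset of 32, the 99th percentile detection level, no filter, and dim values raised to the detection level. They depended on the fold threshold. At 3-fold 1 member was left between CDR and non-irradiated (Ighg2c) and 1 between FLASH and CDR (Ighg2b), and at 1.5-fold 5 members passed between FLASH and CDR, 3 higher and 2 lower. Under the other rescalings no member past 2-fold changed sign. The Igkc difference between FLASH and non-irradiated was 0 after quantile normalisation, and the Igha difference less that of Igkc in this comparison was 0.0037 after cyclic loess, so neither has a settled direction. The offset brought the Ighg2b difference between FLASH and CDR to -1.35 and that of Ighg2c between CDR and non-irradiated to -3.23. With dim values raised, Ighg2c stood at -0.12 between FLASH and CDR. Over all detected genes the offset also cut the counts past 2-fold, to 45 higher and 152 lower between CDR and non-irradiated, 78 and 101 between FLASH and non-irradiated, and 73 and 5 between FLASH and CDR. No paired analysis was possible because each group had 1 array. Leaving out an array was not possible for the same reason.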
